A study of Homo sapiens with 6 samples.

Results

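The transcripts described are those of 10 genes that ERK signalling switches on or that feed back on it: the phosphatase genes DUSP4, DUSP5 and DUSP6, the sprouty genes SPRY1, SPRY2 and SPRY4, the sprouty-related genes SPRED1 and SPRED2, and the transcription factor genes ETV4 and ETV5. They were taken by gene symbol, and all 10 were found among the 20811 genes of the table. They were compared between 2 lines made from HuCCT1, a cell line of human intrahepatic bile duct cancer. HuCCT1/CD90+ cells had received a lentivirus carrying human THY1-CMV-GFP (THY1 encodes CD90), and HuCCT1/CD90− cells the control vector Lenti-CMV-GFP-2A-Puro-Blank, both at an MOI of 40, and both lines grew in the same medium with serum. There were 3 libraries of each line, made with the Ion AmpliSeq Transcriptome panel, which reads each gene over 1 short amplicon. Each condition was 1 transduced line, and whether it grew from 1 clone is not stated, so that the effect of CD90 and any other difference between the lines cannot be told apart.

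ERK is the last kinase of the RAS, RAF, MEK and ERK cascade, which carries growth factor signals to the nucleus. Active ERK raises the transcription of its own brakes: DUSP4, DUSP5 and DUSP6 encode phosphatases that remove the activating phosphates of MAP kinases, while sprouty and SPRED proteins act upstream, at the level of receptors, RAS and RAF. ETV4 and ETV5 are ETS transcription factors of the PEA3 family, whose transcription and activity follow ERK. In bile duct cancers, as in other carcinomas, these transcripts are often read as a proxy of ERK output, although no phosphorylated ERK was measured here.

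ETS factors bind DNA around a GGAA core, so the promoters of the 10 genes were searched for the core CGGAAG. RefSeq promoters (GRCh38.p14) were at hand for 6 of the genes, DUSP6, SPRY1, SPRY2, SPRY4, SPRED1 and SPRED2, with 10 transcription starts in all, and the 250 bases before each start were read on both strands. The core was found before a start of DUSP6 and before a start of SPRY1, against 16.48% of the 35116 promoter windows of all genes. Both sites are shown because they stand before 1 gene that was read in every library, DUSP6, and 1 that was hardly read in any, SPRY1. They lie at chr12:89352546-89352575 on the minus strand, inside the first exon of the longest DUSP6 transcript of GENCODE 29, and at chr4:123398308-123398337 on the plus strand. The SPRY1 site too lies within its gene, which GENCODE 29 places at chr4:123396795-123403760. The core, or its reverse complement in DUSP6, is in capitals.
DUSP6: cggcaacagcccCTTCCGcagcacgctcat
SPRY1: gccctccgcagcCGGAAGggggccgcgggg
An AP-1 site (TGANTCA), a CRE (TGACGTCA) and the sites of the repressor CIC (TGAATGAA and TGAATGGA) were in none of the 10 windows, against 6.57%, 1.65%, 1.4% and 0.83% of all windows. These matches describe the letters of the windows only.

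The libraries held 8587634 to 10551516 reads on genes, and 3 reads, the floor used for detection, were worth 0.284 to 0.349 RPM, the deposited unit, in which reads are scaled to the same total in every library. THY1 had at most 1 read in the HuCCT1/CD90− libraries and 435 to 680 reads in those of HuCCT1/CD90+, whose mean of 57.4 ± 14.4 RPM (SD, n = 3) was at least 192 times the mean floor of the HuCCT1/CD90− libraries. The cholangiocyte markers KRT7, KRT19, KRT8 and KRT18 were high in every library, and the 8 markers of that list summed to 8211 to 9314 RPM in HuCCT1/CD90−, against 10976 to 11722 RPM in HuCCT1/CD90+. The 4 hepatocyte markers summed to at most 4.28 RPM, with TTR at 0 in all libraries, and the 5 leukocyte markers to 61.3 to 66.4 RPM in HuCCT1/CD90−, against 85.8 to 103 RPM in HuCCT1/CD90+. Of these, PTPRC and CD3E were at or under the floor, CD68 made up most of the sum and rose with CD79A, and LYZ fell (adjusted p = 0.0082, limma, and 0.069 with the block). The 6 fibroblast markers summed to 41.8 to 64.9 RPM in HuCCT1/CD90−, against 20.3 to 24.7 RPM in HuCCT1/CD90+, the 4 endothelial markers to 14.5 to 23.2 and 0.643 to 1.63 RPM, with KDR at or under the floor in all libraries, and their part in the results was not tested.

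Of the 10 genes, 1 rose and 1 fell in HuCCT1/CD90+ (limma, p adjusted by Benjamini-Hochberg over all genes, threshold 0.05). DUSP5 rose 4.02-fold and DUSP6 fell by 0.54 on the log2 scale, and the other 8 genes did not pass. In these bulk libraries, fewer cells with a transcript and less of it per cell cannot be told apart. Over all genes tested, 18.9% passed, 9.41% higher and 9.52% lower, so that 2 of 10 is close to the share of any genes. With the replicate number as a block, which the libraries' deviations gave reason to try, 1 of 10 rose and 0 fell, against 13.1% of all genes (6.72% higher and 6.4% lower). Among the 8794 genes whose mean reached 10 RPM, 28.4% passed, 14.3% higher and 14.1% lower, against 2 of the 8 members above that level. At the thresholds of the study, a fold change of 1.5 and an unadjusted p of at most 0.05, DUSP5 alone passed, 1 of 10 against 20.1% of all genes (10.1% higher and 9.98% lower). The libraries of the lines did not overlap for 3 members, DUSP5, DUSP6 and SPRED1, 1 higher and 2 lower, against 35% of all genes (17.3% higher and 17.7% lower) and 52.5% of those whose mean reached 10 RPM. The members' median log2 fold change was 0.013 (0.057 over the 9 above the floor), beside 0 for the whole table. Over the 8 members whose mean reached 10 RPM it was -0.063, beside 0.012 for all genes at that level.

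**Figure D1:**
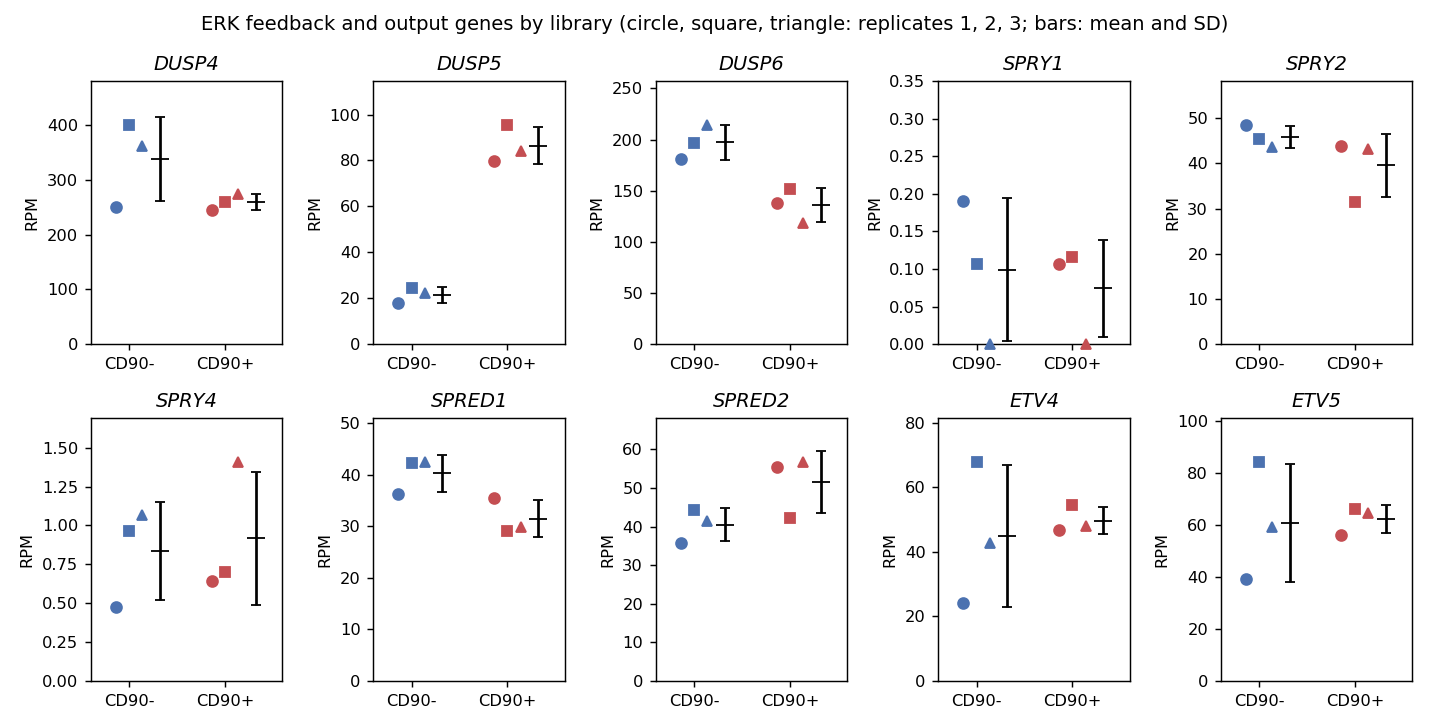
RPM (reads scaled to the same total per library) of each of the 10 genes in the 3 HuCCT1/CD90− and the 3 HuCCT1/CD90+ libraries, each panel with its own linear axis from 0. Points are libraries (circle, square and triangle for replicates 1, 2 and 3) and bars give the mean and SD of the 3 libraries. DUSP5 stands apart, lying between 17.8 and 24.3 RPM in HuCCT1/CD90− and between 79.7 and 95.5 RPM in HuCCT1/CD90+.

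DUSP5, a nuclear phosphatase that acts on ERK and not on other MAP kinases, was read at 17.8, 24.3 and 22.3 RPM in HuCCT1/CD90− and at 79.7, 95.5 and 84.1 RPM in HuCCT1/CD90+. Every HuCCT1/CD90+ library lay above every HuCCT1/CD90− library, with a wide gap between the lines. Its mean was 21.5 ± 3.32 RPM in the first and 86.4 ± 8.17 RPM in the second line (SD, n = 3 each). On log2(RPM + 1) the fold change was 1.97 ± 0.14 (SE), with a 95% interval of 1.59 to 2.34 and an adjusted p of 0.0025 (limma). With the replicate number as a block the adjusted p was 0.017, and with any 1 library left out the log2 fold change stayed between 1.84 and 2.06 and the adjusted p between 0.0057 and 0.018. The gene lies at chr10:110497838-110511544 on the plus strand (GRCh38, GENCODE 29). Its 50 nearest well-read genes (mean of 10 RPM or more) had a median of 0.02 on the same scale, so that they did not share the rise.

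DUSP6 encodes the cytoplasmic counterpart of DUSP5, which also acts on ERK and is among the transcripts most often used to read ERK activity. Its level was 181, 197 and 214 RPM in HuCCT1/CD90− and 138, 151 and 118 RPM in HuCCT1/CD90+. The lines did not overlap, and the direction was opposite to that of DUSP5. Means were 197 ± 16.7 and 136 ± 16.6 RPM (SD, n = 3 each), and the fold change on the log2 scale was -0.54 ± 0.12 (SE), with a 95% interval of -0.85 to -0.22 and an adjusted p of 0.045 (limma). This call depended on the fit. Its adjusted p was 0.15 with the replicate block, and 0.062 to 0.13 with any 1 of the 6 libraries left out, while on recovered reads it was 0.0048 with edgeR and 0.0016 with DESeq2. DUSP6 lies at chr12:89347232-89353271, where GENCODE 29 also places an antisense gene on the other strand. Neither the strand of the reads nor the position of the amplicon is given, so whether any reads came from the antisense gene cannot be told.

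DUSP4, a nuclear phosphatase of ERK and of the stress kinases as well, was read at 251, 400 and 363 RPM in HuCCT1/CD90− and at 245, 260 and 274 RPM in HuCCT1/CD90+. HuCCT1/CD90− replicate 1 lay within the range of HuCCT1/CD90+, and the other 2 HuCCT1/CD90− libraries lay above it. The log2 fold change was -0.35 (95% confidence interval from -0.88 to 0.18, adjusted p = 0.33, limma). Without HuCCT1/CD90− replicate 1 it was -0.55 with an adjusted p of 0.030, so that the call depended on this library. It depended on the fit as well, since with all libraries the adjusted p was 0.047 with edgeR without a filter, 0.057 with edgeR after its filter and 0.069 with DESeq2.

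Since each library is its own control in a ratio, the members of a family were also set against each other. The log2 ratio of DUSP6 to DUSP5 was 3.27, 2.97 and 3.21 in HuCCT1/CD90− and 0.79, 0.66 and 0.49 in HuCCT1/CD90+, a difference of -2.50. That of DUSP5 to DUSP4 rose by 2.32, from a mean of -3.90 to -1.58. The ratio of DUSP6 to DUSP4 overlapped between the lines, with a difference of -0.18. With 3 libraries against 3, the exact permutation test (two-sided) cannot go below p = 0.10, which the first and the second of these pairs reached (adjusted p = 0.27 over 8 pairs). Both of these pairs hold DUSP5 and restate its rise. Amplicons differ in efficiency, so the ratio itself does not say which transcript was more abundant, only its change between the lines can be read.

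**Figure D2:**
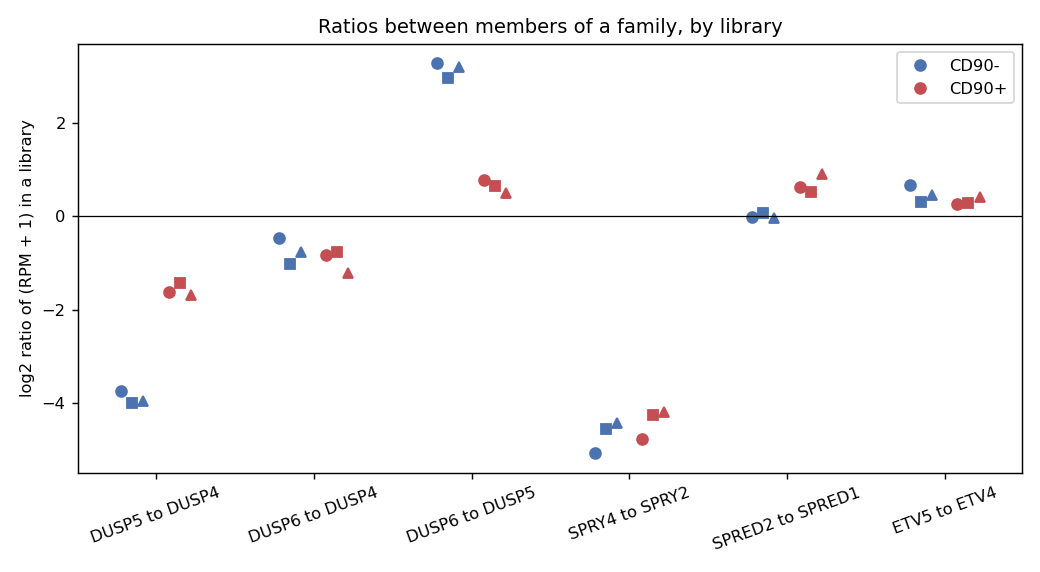
Log2 ratio of (RPM + 1) between 2 members of a family in each library, blue for HuCCT1/CD90− and red for HuCCT1/CD90+ (circle, square and triangle for replicates 1, 2 and 3), without the 2 pairs that hold SPRY1. The libraries of the lines do not overlap for DUSP5 to DUSP4, DUSP6 to DUSP5 and SPRED2 to SPRED1, whose means differed by 2.32, -2.50 and 0.68, and of which the first and the second hold DUSP5. The share of other gene pairs without overlap was not computed.

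Sprouty proteins hold back signals from receptor tyrosine kinases to RAS and RAF. SPRY2 was read well above the floor in every library, with 48.5, 45.4 and 43.7 RPM in HuCCT1/CD90− and 44.0, 31.4 and 43.3 RPM in HuCCT1/CD90+. The lines overlapped, and 1 library, HuCCT1/CD90+ replicate 2, lay below the rest. Its log2 fold change was -0.22 (95% confidence interval from -0.63 to 0.18, adjusted p = 0.44, limma), and -0.07 without that library.

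SPRY4 was near the limit of detection, with reads of 5, 9 and 11 in HuCCT1/CD90− and of 6, 6 and 13 in HuCCT1/CD90+. These correspond to 0.474 to 1.07 and 0.643 to 1.41 RPM, and a difference between the lines was not detectable at this depth (log2 fold change 0.06, 95% confidence interval from -0.53 to 0.65, limma). SPRY1 reads numbered 2, 1 and 0 in HuCCT1/CD90− and 1, 1 and 0 in HuCCT1/CD90+, at or under the floor of 3 reads in every library, and no fold is given. Both genes are well-known ERK targets in other cells, and low reads over 1 amplicon do not show that no other isoform was present.

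SPRED proteins bring neurofibromin, the RAS-inactivating product of NF1, to the membrane, and neither of the 2 genes passed the test. SPRED1 had 36.2, 42.3 and 42.6 RPM in HuCCT1/CD90− and 35.6, 29.1 and 29.8 RPM in HuCCT1/CD90+. The lines did not overlap, but only narrowly, since HuCCT1/CD90+ replicate 1 lay just under HuCCT1/CD90− replicate 1. The log2 fold change was -0.35 ± 0.11 (SE), with a 95% interval of -0.64 to -0.06, and its unadjusted p of 0.029 became 0.11 after adjustment over all genes (limma). SPRED2 had 35.8, 44.2 and 41.4 RPM in HuCCT1/CD90− and 55.5, 42.3 and 56.9 RPM in HuCCT1/CD90+, where replicate 2 fell among the HuCCT1/CD90− libraries. Its log2 fold change was 0.33 (95% confidence interval from -0.07 to 0.74, adjusted p = 0.24, limma).

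The ratio of SPRED2 to SPRED1 did not overlap between the lines, and the share of other gene pairs without overlap was not computed. Its log2 value was -0.01, 0.06 and -0.04 in HuCCT1/CD90− and 0.63, 0.52 and 0.91 in HuCCT1/CD90+, with means of 0.003 ± 0.053 and 0.69 ± 0.20 (SD, n = 3 each). The difference of 0.68 had the smallest p the exact permutation test can give for 3 against 3, 0.10 (adjusted p = 0.27 over 8 pairs), and stayed between 0.57 and 0.76 with any 1 library left out.

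ETV4 and ETV5 bind ETS sites and drive growth and invasion programmes downstream of receptor tyrosine kinases. ETV4 levels were 24.3, 67.9 and 42.7 RPM in HuCCT1/CD90− and 46.7, 54.4 and 48.0 RPM in HuCCT1/CD90+. The HuCCT1/CD90+ libraries all lay inside the range of HuCCT1/CD90−. ETV5 showed the same order of libraries within HuCCT1/CD90−, with 39.0, 84.3 and 59.3 RPM, against 56.2, 66.0 and 64.6 RPM in HuCCT1/CD90+. The log2 fold changes were 0.26 for ETV4 (95% confidence interval from -0.82 to 1.33, adjusted p = 0.82) and 0.10 for ETV5 (from -0.72 to 0.91, adjusted p = 1, limma). These wide intervals still hold a 1.5-fold change in either direction, so a change of that size was not detectable. GENCODE 29 places part of DHX8 over ETV4 on the other strand and part of DGKG over ETV5. Both have their own entry among the genes read. Without the positions of the amplicons, whether any reads are shared cannot be told.

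The spread between libraries differed between the lines for some members, a difference that was not tested. The coefficient of variation over the 3 HuCCT1/CD90− libraries was 48.8% for ETV4, 37.3% for ETV5 and 22.9% for DUSP4, whereas over the 3 HuCCT1/CD90+ libraries it was 8.26%, 8.54% and 5.53%. The reverse was seen for SPRY2, at 5.39% and 17.8%, and in lesser measure for SPRED2, at 10.5% and 15.7%, SPRED1, at 8.91% and 11.3%, and DUSP6, at 8.49% and 12.2%. In ETV4, ETV5 and DUSP4, and likewise in DUSP5 and SPRED2, HuCCT1/CD90− replicate 1 was lowest and replicate 2 highest. DUSP6, SPRED1 and the sprouty genes did not share this order. Without HuCCT1/CD90− replicate 1 the log2 fold changes of ETV4 and ETV5 were -0.12 and -0.18, that is, on the other side of 0.

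The change of each member was also set beside that of its surroundings on the chromosome. Over the 50 nearest well-read genes the median change on the log2 scale was between -0.08 and 0.10 for 8 of the 10 members. It was 0.26 around SPRY1 on chromosome 4 and 0.70 around ETV5, which lies at chr3:186046308-186110318. The log2 fold change of ETV5 itself was 0.10. With the neighbours' median taken off, its log2 fold change was -0.59 (adjusted p = 0.32, limma). That of DUSP5 was 1.94 (adjusted p = 0.0027) and that of DUSP6 -0.52 (adjusted p = 0.054).

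**Figure D3:**
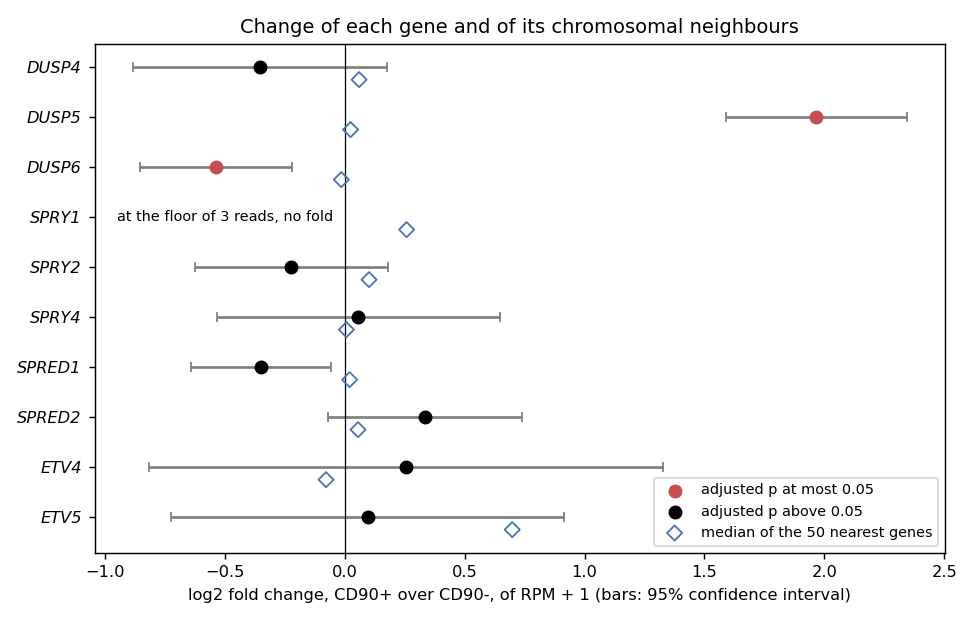
Log2 fold change of RPM + 1 between HuCCT1/CD90+ and HuCCT1/CD90− for each of the 9 genes above the floor (points, red where the adjusted p was at most 0.05) with its 95% confidence interval from limma, and, for all 10, the median change of their 50 nearest genes (open diamonds). DUSP5 at 1.97 and DUSP6 at -0.54 are the 2 red points, and the diamond of ETV5 at 0.70 lies apart from the others.

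The members were then set beside 61 further genes of the pathway in 5 lists, chosen with earlier results of these data known. Of these, 10 rose and 11 fell (limma, adjusted p of at most 0.05). That is 34.4% of the 61 at any level, beside 18.9% of all genes and 28.4% of those whose mean reached 10 RPM. Fitted only on genes whose mean reached 10 RPM, 19 of 45 passed, against 3715 of all 8794 such genes. Of 21 genes of the cascade itself 3 rose and 2 fell, or 2 and 1 with the replicate block. MAPK3, which encodes an ERK kinase, did not pass (log2 fold change 0.06, adjusted p = 0.95, limma). MAP2K1, which encodes MEK1, rose, with means of 107 ± 4.58 and 190 ± 16.7 RPM (SD, n = 3 each, adjusted p = 0.0052, limma), as did the adaptor gene GAB1, at 5.78 ± 2.24 and 18.7 ± 2.07 RPM (adjusted p = 0.030, limma, 0.080 with the block, the call being lost with each of 4 libraries left out in turn). The adaptor gene SHC1 and the scaffold gene KSR1 fell, with log2 fold changes of -0.60 and -0.62 (adjusted p = 0.029 and 0.035, limma, each call being lost with each of 5 libraries left out in turn and that of KSR1 with the block, at 0.11). With the medians of their chromosomal neighbours taken off, the log2 value of SHC1 was -0.24 (adjusted p = 0.26) and that of GAB1 1.32 (adjusted p = 0.054, limma), so that neither passed.

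Among 17 other brakes of RAS and ERK 4 rose and 5 fell, against 2 and 3 with the replicate block. SPRED3, the remaining SPRED gene, was 5.36-fold lower in HuCCT1/CD90+, at 11.1 ± 0.976 against 2.07 ± 0.695 RPM (SD, n = 3 each, adjusted p = 0.0061, limma, 0.054 with the block), while SPRED1 and SPRED2 did not pass. LRIG1, which lowers receptor tyrosine kinases of the EGFR family, was 10.5-fold lower, at 39.0 ± 2.74 against 3.70 ± 0.637 RPM (adjusted p = 0.00059, limma). The RAS GTPase-activating genes DAB2IP and RASAL1 rose, DAB2IP with a ratio of 3.89 (adjusted p = 0.00087) and RASAL1 at least 13.2-fold from the floor in HuCCT1/CD90− (adjusted p = 0.028, limma, 0.083 with the block, the call being lost with each of 4 libraries left out in turn). The fall counted for DOK2 rests on 3 reads in each library against 0, which is at the floor. Of the 7 other MAP kinase phosphatase genes, DUSP16 and DUSP8, both directed at the stress kinases, rose with log2 fold changes of 0.51 and 0.42 (adjusted p = 0.017 and 0.024, limma). With the medians of their chromosomal neighbours, 0.33 and 0.36, taken off, neither passed (adjusted p = 0.19 and 0.59), and with the block DUSP16 did not (adjusted p = 0.082). The call of DUSP16 was also lost with each of 4, and that of DUSP8 with each of 5, libraries left out in turn. DUSP9 had no reads.

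Of 11 other ERK output genes 1 rose and 4 fell, or 2 and 3 with the replicate block. On recovered reads the count was even, with 4 higher and 4 lower by both edgeR and DESeq2, where MYC, FOSL1 and PHLDA1 joined CCND1. These tools also called more of all genes, 44.4% of the 12070 tested with edgeR (22.2% in each direction) and 31.3% of the 17006 with DESeq2 (16.1% higher and 15.3% lower). MYC was also the rise gained with the block (adjusted p = 0.086 without and 0.037 with it, limma). CCND1, the gene of cyclin D1, rose 2.17-fold, with means of 438 ± 65.6 and 948 ± 1.80 RPM (SD, n = 3 each, adjusted p = 0.0067, limma), and the ephrin receptor genes EPHA2 and EPHA4 fell with log2 fold changes of -0.82 and -2.34 (adjusted p = 0.0095 and 0.0018, limma, 0.064 for EPHA2 with the block), that of EPHA2 being -0.47 with its neighbours' median taken off. ETV1, the third gene of the PEA3 family, had 18.8, 18.7 and 19.8 RPM in HuCCT1/CD90− and 4.50, 4.08 and 3.15 RPM in HuCCT1/CD90+. It fell by 2.04 on the log2 scale (adjusted p = 0.0015, limma), whereas ETV4 and ETV5 did not pass, and its neighbours on chromosome 7 had a median of 0.40. The immediate early gene EGR1 was lower, at 22.4 ± 1.67 against 9.31 ± 1.87 RPM (adjusted p = 0.011, or 0.051 without HuCCT1/CD90+ replicate 3, limma), and PHLDA1 did not pass with limma (log2 fold change 0.43, adjusted p = 0.21), though it did with edgeR (adjusted p = 0.033) and DESeq2 (0.027). Of the 5 regulators of ETV4 and ETV5, 0 passed with limma, edgeR or DESeq2, and 1, COP1, had an unadjusted p under 0.05 with limma. For the repressor gene CIC the change was -0.24 on the log2 scale (adjusted p = 0.21, limma).

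**Figure D4:**
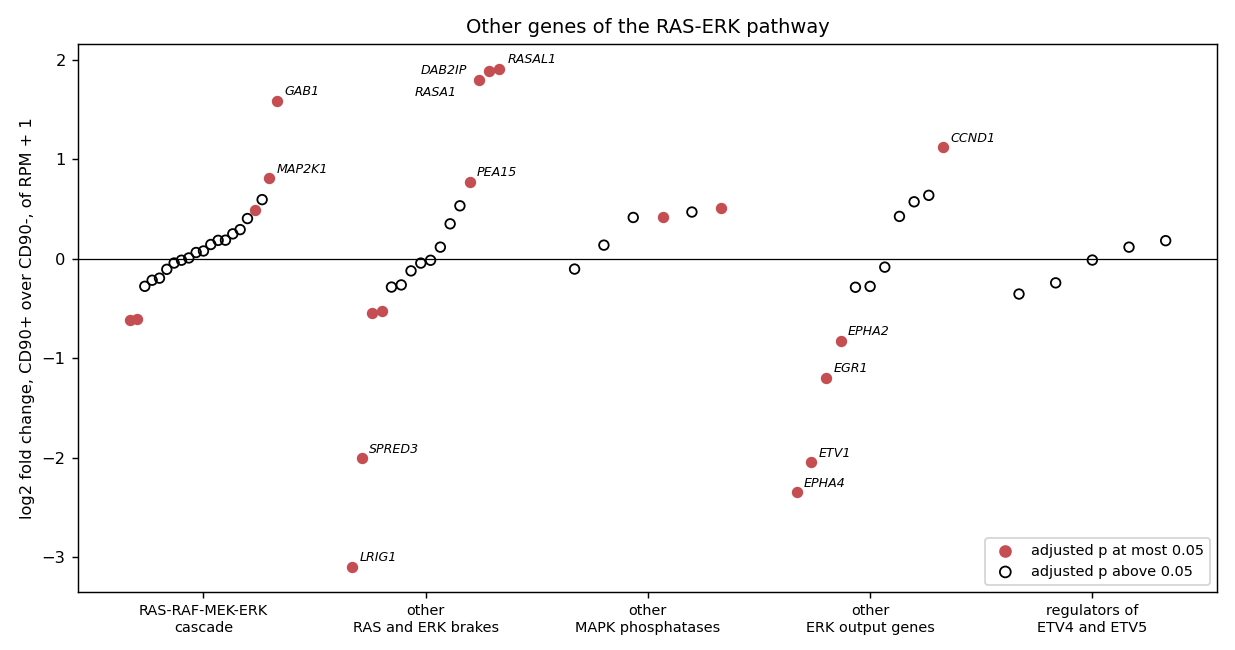
Log2 fold change of RPM + 1 between HuCCT1/CD90+ and HuCCT1/CD90− for the 59 of 61 other genes of the RAS-ERK pathway, in 5 lists, that were above the floor, each point a gene, ordered by value within its list and filled red where the adjusted p from limma was at most 0.05. Filled points lie on both sides of 0 in the cascade, brake and output lists, from LRIG1 at -3.09 to RASAL1 at 1.91.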

How the data were processed

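The authors reverse-transcribed total RNA, amplified it with the Ion AmpliSeq Transcriptome panel, ran the libraries on an Ion GeneStudio S5 Prime sequencer and obtained reads per amplicon through the ampliSeqRNA plugin. They deposited RPM values, 1 amplicon per gene, for 20811 genes without a filter on low values. The submitters' processing notes name hg19 and Transcriptome Analysis Console. The positions of the amplicons are not given in the sources used here. Every value was a whole multiple of 1 read's worth (100% within 0.05 reads), which gave back the reads.

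Differences were tested on log2(RPM + 1) over all genes with limma 3.58.1 in R 4.3.3 (lmFit and eBayes, default settings), as the study's methods name limma, and p-values were adjusted by Benjamini-Hochberg. This scale understates the change of weakly read genes. Ratios within families were compared by exact permutation (scipy 1.17.1). Tested on simulated data, the fit returned fold changes near those set but called few of the smaller ones, and most of its false calls were genes with a mean under 1 RPM. Intervals are those of limma, and floors of 3 reads cover counting error only, since reads carried no molecular identifiers. No 2 libraries agreed within sampling noise (chi-square of at least 9.18 per degree of freedom). Neither labels nor methods say whether the 3 libraries of a line came from separate cultures, so p-values measure the spread between these libraries only.

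The members and lists were chosen with earlier results of these data known. Named genes outside the 10 members are, in each list, up to 4 with the largest absolute log2 fold change among those past the adjusted threshold of 0.05 whose mean reached 1 RPM, plus MAPK3, CIC, PHLDA1, CCND1, EPHA2 and EPHA4. Some genes of this rule are not reported here. COP1, DOK2, DUSP9, MYC, FOSL1 and the cell type markers were named after their values were seen. COP1 was found under its older symbol RFWD2. GENCODE 29 positions (GRCh38) were matched by symbol for 18609 genes.

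Libraries that share a number deviated from their lines' means together, with r = 0.209, 0.32 and 0.178 for numbers 1, 2 and 3, against -0.294 to 0.0706 for other pairs, a hint of pairing that no label states. The fit described above has no block, as the study's methods name none, and calls that a block changes are given with both values. Alternatives were a block for the replicate number, offsets of 0.1 and 5 RPM, filters at a mean of 1 and 10 RPM, quantile normalization, median centring, trend and robust eBayes, subtraction of the median of 50 neighbours, each library left out, a minimum fold change of 2, edgeR 4.0.16 (quasi-likelihood, with and without filterByExpr) and DESeq2 1.42.0.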

Additional observations from a re-analysis of the deposited data

How the results depend on the processing

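DUSP5 passed the adjusted threshold in every alternative run (log2 fold change 1.79 to 2.06, adjusted p from 4.8e-30 to 0.018). The count of 2 members at an adjusted p of at most 0.05 became 1 with trend and robust eBayes, with the replicate block and with the neighbours' median subtracted, in each case because DUSP6 no longer passed (adjusted p = 0.052, 0.15 and 0.054, limma). It was 1 to 2 with 1 library left out, being 2 only without HuCCT1/CD90− replicate 1, when DUSP4 and not DUSP6 was the other gene. The block changed no other member's call. The count at the study's thresholds was 1 to 2 with 1 library left out, 2 without HuCCT1/CD90− replicate 1 or HuCCT1/CD90+ replicate 2. SPRED1 passed with median centring (adjusted p = 0.036, limma) and DUSP4 with edgeR without a filter (adjusted p = 0.047). Of the 61 other pathway genes 21 passed, 14 with the replicate block, and 11 to 19 with 1 library left out, 13 without HuCCT1/CD90− replicate 3 and 11 without HuCCT1/CD90+ replicate 3. With DESeq2 15 were higher and 9 lower, when 31.3% of all genes passed. Over all genes 3939 passed, and 2197 to 2932 with 1 library left out. Signs turned only for genes that did not pass: with 1 library left out the log2 fold change ranged from -0.12 to 0.16 for SPRY4, from -0.12 to 0.61 for ETV4 and from -0.18 to 0.36 for ETV5, and that of ETV5 was -0.59 with the neighbours' median subtracted. The differences in ratio of the 6 pairs without SPRY1 kept their sign with every offset and library left out. SPRY4 has no value under the filters at 1 and 10 RPM and with edgeR after filterByExpr. Depth limits SPRY1 and SPRY4, and the spread between libraries of HuCCT1/CD90− limits ETV4, ETV5 and DUSP4.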
